A study of Homo sapiens with 12 samples.

Results

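CXCR7 knockdown in LNCaP-EnzR cells was described from 6 RNA-Seq libraries, 3 from cells infected with the control vector LKO and 3 from cells infected with a hairpin against CXCR7 (shCXCR7), out of 12 libraries in the series. Libraries were placed in these groups by their labels, and all 6 were used. LNCaP is a human prostate cancer cell line that depends on the androgen receptor, and LNCaP-EnzR cells are LNCaP cells made resistant to enzalutamide, a drug that blocks this receptor. Both groups were kept in 2 µM enzalutamide, both were infected with lentivirus, and RNA was taken 4 days after infection. The other 6 libraries hold the same pair of infections in C4-2B-EnzR cells, a castration-resistant line derived from LNCaP, kept in 10 µM enzalutamide. The study asked which genes depend on CXCR7 in prostate cancer cells that no longer respond to enzalutamide. The study's methods name a pair of hairpins against CXCR7. The sources used here do not say which of them the RNA-Seq libraries carry, give its sequence or state whether replicates were separate cultures. A p value below therefore covers no more than the spread from library to library, which may be technical.

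CXCR7, now named ACKR3, is an atypical chemokine receptor. It binds the chemokine CXCL12 and takes it up, does not signal through G proteins in the usual way, and instead recruits arrestins, which bring it into endosomes and can lead to ERK activation.

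The deposited values are RPKM, reads scaled to gene length and library total, and the depth of the 6 libraries came to between 6380696 and 9832316 reads in genes. The library of shCXCR7 replicate 3 stood apart from the rest. It held 27.3% of its reads in genes against 67.0% to 71.8% in the other 5 libraries, and it listed 1636 genes at 0 against 8719 to 9652. Its RPKM values are therefore low for most expressed genes. Genes at 0 elsewhere had a background of about 0.357 RPKM in it, or 0.724 after the rescaling below. Values below were rescaled by median-of-ratios factors, which were between 1.11 and 1.207 in the other libraries and 0.493 in this one. The rescaling moved the median log2 fold change of all 13167 genes tested from -0.31 to 0.02. Each main result was repeated without this library. In bulk RNA, fewer cells of a kind and less RNA per cell cannot be told apart.

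The targeted gene was lower in each shCXCR7 library than in each control library. ACKR3, on chromosome 2 from 236537122 to 236582354 in GRCh38, stood at 122, 117 and 111 rescaled RPKM in the LKO libraries and at 55.7, 50.5 and 42.1 after knockdown. The means were 116.5 ± 5.57 and 49.4 ± 6.86 (SD, n = 3 each). These values rest on 2707, 3969 and 2860 reads in the control libraries and on 1648, 1719 and 1556 reads after knockdown. The lowest of the 6 values was that of shCXCR7 replicate 3, and the groups did not overlap. The knockdown left 42.4% of the control level, or 45.6% without shCXCR7 replicate 3 (2-sided exact permutation test on the 6 libraries, p = 0.1, the smallest this design can reach). On the log2 scale ACKR3 fell by 1.24 (standard error 0.11, adjusted p = 1.83e-05 from limma). The value was -1.13 without shCXCR7 replicate 3 (adjusted p = 2.7e-05 from limma).

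Genes that work with the receptor moved in both directions. Of 27 genes of the CXCR7 receptor and arrestin list, 18 passed the filter of 0.5 RPKM in 3 of the 6 libraries, 7 rose and 7 fell at an adjusted p under 0.05, and their median was 0.13 on the log2 scale against 0.02 over all genes. That limit was passed upward by 19.2% and downward by 21.2% of all genes tested. The targeted gene ACKR3 is on this list and is 1 of the 7 that fell. Without LKO replicate 3, 4 members fell in place of 7. The arrestin ARRB1, one of the scaffolds that receptors of this kind recruit, stood at 5.32, 4.90 and 4.997 rescaled RPKM in LKO and at 2.52, 2.38 and 2.80 in shCXCR7 libraries, a log2 fold change of -0.92 (standard error 0.10). The second arrestin, ARRB2, did not pass, with 16.9, 18.6 and 19.3 in LKO against 18.4, 17.4 and 15.6 in shCXCR7 libraries, where the groups overlapped (adjusted p = 0.401 from limma). ADRBK1, now GRK2, a kinase that phosphorylates activated receptors, rose from 15.2 ± 1.05 to 27.6 ± 0.862 (SD, n = 3 each; log2 fold change 0.85, standard error 0.07). The GTPases of endosomes split, with RAB11A of the recycling endosome lower at -0.90 and RAB5A of the early endosome higher at 0.48 on the log2 scale. The clathrin adaptor subunit AP2M1 fell (-0.65) while another subunit, AP2A1, rose (0.45).

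Among 28 genes of ERK output, 18 were tested, 3 rose and 4 fell, and the median log2 change was -0.04. The shares that rose and fell, 16.7% and 22.2%, were near the 19.2% and 21.2% of all genes tested. The largest fall was that of CCND1, the cyclin that starts the passage through G1. It stood at 66.8, 66.7 and 70.3 rescaled RPKM in LKO and at 22.5, 22.1 and 21.3 in shCXCR7 libraries, a fall of -1.62 in log2 units (standard error 0.07; limma, adjusted p = 4.98e-07). The transcription factor MYC fell from 75.8 to 46.5 rescaled RPKM (-0.71, standard error 0.10), and DUSP4, a phosphatase that is induced by ERK and turns it off, fell from 3.17 to 1.34 (-1.14, standard error 0.21). The immediate early gene JUN rose from 26.9 to 39.6 (0.55, standard error 0.09). Without shCXCR7 replicate 3, 7 members fell in place of 4 and the median was -0.24.

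**Figure D1:**
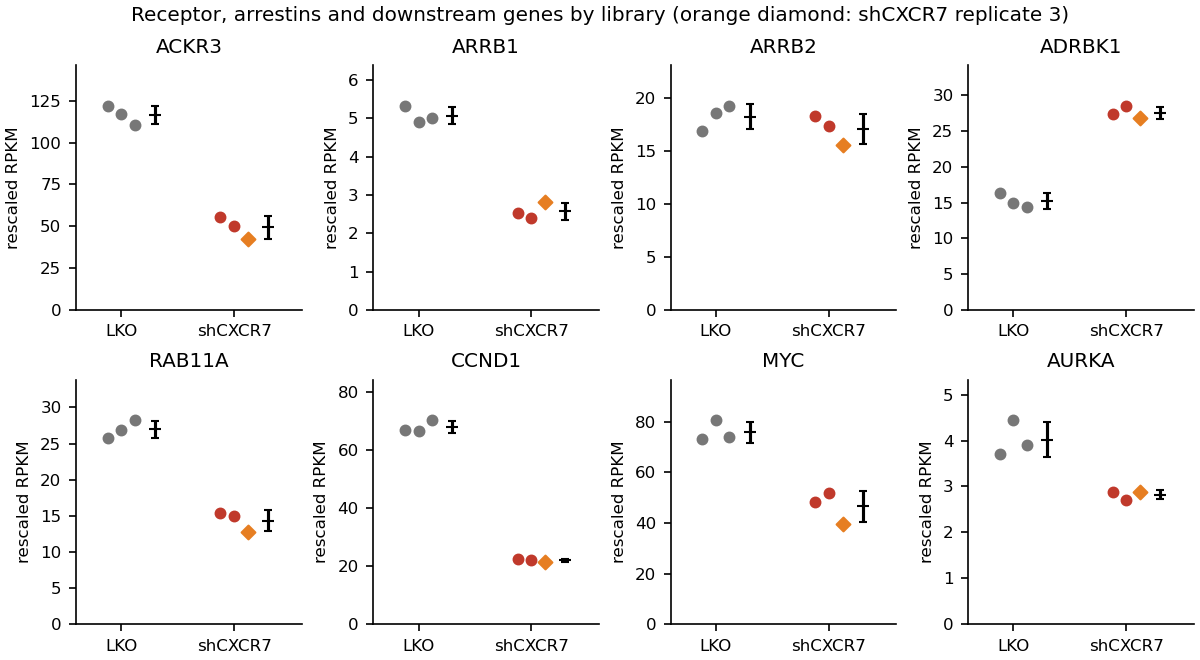
Points show rescaled RPKM in each LNCaP-EnzR library for 8 genes, grey for LKO, red for shCXCR7 replicates 1 and 2 and an orange diamond for shCXCR7 replicate 3, with the mean and SD of the 3 libraries in black. The groups do not overlap for ACKR3, ARRB1, ADRBK1, RAB11A, CCND1, MYC and AURKA, and they overlap for ARRB2. Groups do not overlap for 52.1% of all genes tested.

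Over all genes, 251 were higher and 262 lower after knockdown by at least 2-fold with an adjusted p below 0.001 from limma, which is 1.91% and 1.99% of those tested. With the limit of 0.05 alone, 2524 were higher and 2787 lower. Groups did not overlap for 52.1% of all genes tested and for each of the 513 genes past the first limit. Of these 513, 498 were also tested without shCXCR7 replicate 3, and all 498 had the same direction there at an adjusted p under 0.05. In that fit of 5 libraries, 22.5% of genes were higher and 23.9% lower at that limit. A change of at least 4-fold at the stricter limit was seen for 31 higher and 22 lower genes.

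Most of the 12 largest rises were of genes near the detection limit in control cells. C2orf54, now MAB21L4, on chromosome 2 from 240886048 to 240896839, stood at 1.09, 0.758 and 0.574 rescaled RPKM in LKO and at 15.1, 15.6 and 15.9 in shCXCR7 libraries (log2 fold change 3.93, standard error 0.16). All 3 shCXCR7 libraries were alike. The rule that picked the 12 largest rises and falls took only genes whose groups did not overlap. The actin-bundling protein FSCN1, on chromosome 7 from 5592816 to 5606655, went from 1.08, 1.04 and 1.047 to 6.602, 6.68 and 7.85 (2.48, standard error 0.11). VAV3, an exchange factor for small GTPases on chromosome 1 from 107571161 to 107965180, went from 0.427, 0.406 and 0.635 to 4.30, 4.14 and 4.58 (2.65, standard error 0.17). DYNLRB1, a light chain of cytoplasmic dynein on chromosome 20 from 34515602 to 34540958, was the one among the 12 largest rises that was well expressed in controls, at 13.3, 14.2 and 15.8 against 83.4, 86.5 and 68.0 after knockdown (2.44, standard error 0.10). For DYNLRB1 shCXCR7 replicate 3 was the lowest of its group.

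Other large rises were those of the secreted chaperone CLU at 2.68 (standard error 0.11), the matrix protein MATN2 at 2.68 (standard error 0.18), the keratin KRT6C at 2.68 (standard error 0.14), the bile acid carrier FABP6 at 2.47 (standard error 0.15) and the gap junction protein GJB1 at 2.31 (standard error 0.26), all on the log2 scale of rescaled RPKM + 0.25. CLU stood at 1.203, 1.03 and 0.936 in LKO and at 7.89, 8.64 and 7.73 in shCXCR7 libraries. KRT6C shares most of its sequence with KRT6A and KRT6B, so how reads were split between them is uncertain. The steroid enzyme AKR1C3, which has near copies in the same family, stood at 0.430, 0.531 and 0.822 in LKO and at 5.77, 5.48 and 5.86 in shCXCR7 libraries (2.84, standard error 0.18).

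The largest falls were of genes that control cells express. A mean of at least 2 rescaled RPKM was a condition of naming, so a large fall had to start above that. C14orf2, now ATP5MJ, a small subunit of the mitochondrial ATP synthase on chromosome 14 from 103912288 to 103921529, stood at 89.5, 87.0 and 87.1 rescaled RPKM in LKO and at 13.6, 11.8 and 11.2 in shCXCR7 libraries (log2 fold change -2.83, standard error 0.08). ARG2, the mitochondrial arginase on chromosome 14 from 67619920 to 67651708, went from 52.1, 55.9 and 54.4 to 7.60, 7.72 and 7.29 (-2.80, standard error 0.07, adjusted p = 3.57e-08 from limma). The spread within each group of ARG2 was small, with an SD of 1.95 in control and 0.222 in knockdown libraries. TP53INP1, a p53 target that takes part in autophagy and cell death, went from 112, 102 and 100.5 to 15.9, 12.7 and 12.6 (-2.92, standard error 0.10).

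Other large falls were of genes with varied roles. ADD3, an adducin of the membrane skeleton, stood at 78.0, 73.4 and 75.4 rescaled RPKM in LKO and at 17.8, 16.6 and 14.2 in shCXCR7 libraries (-2.21, standard error 0.09). The zinc transporter SLC39A6 went from 22.8, 19.0 and 19.8 to 4.61, 3.90 and 4.23 (-2.21, standard error 0.09). MMD, a membrane protein of the progestin and adipoQ receptor family, fell by 2.47 on the log2 scale. TSC22D3, known as GILZ and induced by steroid hormone receptors, went from 25.2, 24.1 and 24.5 to 6.02, 4.48 and 4.66 (-2.24, standard error 0.11). Groups without overlap were a condition for naming these genes.

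Another 3 of the 12 largest falls came down to a few RPKM or less, where the background of shCXCR7 replicate 3 shows. HEPACAM, an adhesion molecule, was at 0.401, 0.452 and 1.07 in shCXCR7 libraries against 5.203, 5.09 and 4.57 in LKO. RINL was at 0.905, 0.745 and 1.65 against 6.71, 7.38 and 6.81, and CEND1 at 0.172, 0.262 and 1.07 against 3.04, 4.02 and 3.81. The highest knockdown value was that of replicate 3 in all 3 genes. Their log2 fold changes were -2.62, -2.47 and -2.55 with this library and -3.002, -2.78 and -3.14 without it, in the order HEPACAM, RINL and CEND1.

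**Figure D2:**
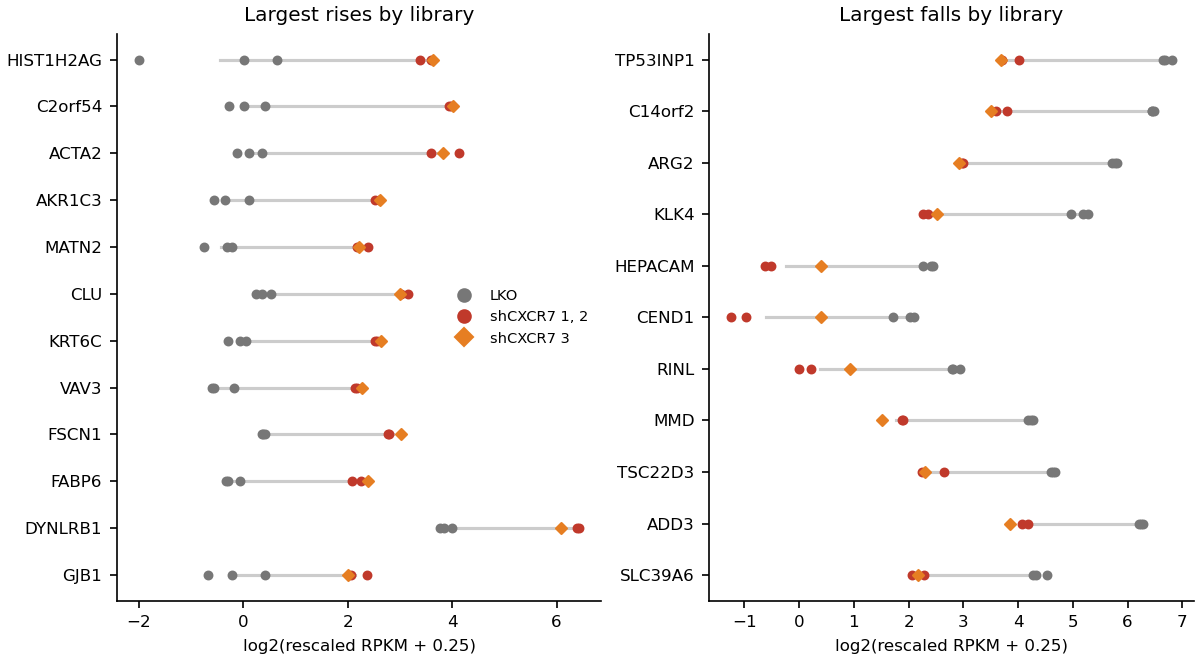
Each row is 1 gene and each point 1 library on the axis of log2(rescaled RPKM + 0.25), grey for LKO, red for shCXCR7 replicates 1 and 2 and orange for shCXCR7 replicate 3, with a line between the group means. The 12 largest rises start near or below 0 on this axis except DYNLRB1, and 11 of the 12 largest falls, which are those drawn, start above 1.5. In HEPACAM, CEND1 and RINL the orange point lies to the right of both red points.

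Genes of the contractile cytoskeleton rose more often than genes at large. Of 49 listed, 32 were tested, 20 rose and 2 fell, and the median log2 change was 0.45 against 0.02 over all genes, and 4 of the 32 passed the filter through the shCXCR7 libraries alone. The smooth muscle actin ACTA2, on chromosome 10 from 88935074 to 88991337, stood at 0.664, 1.04 and 0.835 rescaled RPKM in LKO and at 11.8, 17.3 and 13.9 in shCXCR7 libraries (3.73, standard error 0.16). The enteric smooth muscle actin ACTG2 had 1 read over the 3 control libraries and 201 reads over the 3 shCXCR7 libraries, a ratio of 164 per library size with an exact 95% interval from 29.1 to 6510 that covers counting error only. Actins share sequence, so the split of reads between them is uncertain.

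Members that control cells already express changed as well. The crosslinker FLNA stood at 28.0, 28.1 and 27.6 rescaled RPKM in LKO and at 65.7, 82.0 and 64.8 in shCXCR7 libraries (1.33, standard error 0.10). The tropomyosin TPM4 went from 11.9, 11.7 and 12.9 to 40.5, 39.2 and 32.5 (1.596, standard error 0.09), and the nonmuscle myosin heavy chain MYH9 from 66.1, 65.8 and 65.5 to 111, 128 and 108 (0.80, standard error 0.09). For these 3 genes the groups were far apart relative to the spread within them. SRF, the transcription factor that binds CArG boxes, rose from 8.19 ± 0.417 to 17.2 ± 1.74 (SD, n = 3 each; 1.04, standard error 0.09), and MKL2, now MRTFB, a coactivator of SRF, from 5.60 to 8.37 (0.56). The abundant cytoplasmic actin ACTB fell from 631.0 to 418.1 (-0.60), while ACTG1 was at 1063 and 1121 and did not pass. TAGLN, a smooth muscle marker, fell from 3.85 to 2.39 (-0.63). Without shCXCR7 replicate 3, 15 members rose and 4 fell.

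The boxes that SRF is known to bind are shown here because 20 contractile genes rose. Promoters were taken from RefSeq (GRCh38.p14) for 38 of the 49 list members, and the 250 bases before each start were searched for a CArG box, whose letters read nearly the same on both strands. A match was found in 12 of 72 promoters of the list, which belong to 12 genes, and in 1.16% of all 35116 promoters. Of these 12 genes, 10 were tested, 8 rose and none fell at an adjusted p under 0.05 from limma, and the other two, ACTG1 and CNN2, did not pass. ACTG2 and ACTA1 were under 0.5 RPKM in every LKO library and passed the filter through the shCXCR7 libraries alone, so they could only differ upward. A match is a description and not a site shown to be bound, and the promoters given for ACTA2 hold no such letters in this window. The capitals mark the CArG box in stretches of 30 bases, each read 5′ to 3′ on the strand of its gene.
ACTG2, chr2:73892888-73892917, + strand: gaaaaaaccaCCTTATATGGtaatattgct
ACTG2, chr2:73892925-73892954, + strand: cgtcagctggCCTTTTTAGGgactttgttt
ACTA1, chr1:229434172-229434201, - strand: tgcccaacacCCAAATATGGctcgagaagg
TPM4, chr19:16067355-16067384, + strand: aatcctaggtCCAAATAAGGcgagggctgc
FLNA, chrX:154374709-154374738, - strand: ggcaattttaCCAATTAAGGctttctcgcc
MYLK, chr3:123620623-123620652, - strand: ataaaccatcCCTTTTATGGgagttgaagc
SRF, chr6:43171229-43171258, + strand: ctggggctcaCCATATAAGGagcggcctcg
SMTN, chr22:31084942-31084971, + strand: cggggccgggCCATATAAGGaaaagctagg
ACTN1, chr14:68977718-68977747, - strand: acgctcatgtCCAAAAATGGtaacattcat
ACTG1, chr17:81512874-81512903, - strand: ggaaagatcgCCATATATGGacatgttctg
Beside these stretches the log2 fold changes were 3.61 for ACTG2, 1.73 for the skeletal actin ACTA1, 1.596 for TPM4, 1.33 for FLNA, 1.197 for the myosin kinase MYLK, 1.04 for SRF, 0.46 for smoothelin (SMTN), 0.74 for the actinin ACTN1 and 0.07 for ACTG1, which did not pass.

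Replication-dependent histone genes, whose transcripts are made in S phase and mostly lack a poly(A) tail, also rose. Of 63 listed, 40 were tested, 20 rose and 1 fell, and the median log2 change was 0.71, and 2 of the 40 passed the filter through the shCXCR7 libraries alone. Histone genes are short, often rest on few reads and are close copies of each other, so values of single members are uncertain. HIST1H2AE, an H2A gene on chromosome 6 from 26216921 to 26217437, stood at 3.69, 2.96 and 4.18 rescaled RPKM in LKO and at 12.5, 12.02 and 11.2 in shCXCR7 libraries, from 22, 27 and 29 reads and 99, 110 and 111 reads (log2 fold change 1.66, standard error 0.12). HIST1H2AG was at 0.760, 0 and 1.31 in LKO and at 10.3, 11.9 and 12.2 in shCXCR7 libraries (3.99, standard error 0.52). HIST1H2BF went from 1.80 to 6.70 on average (1.79, standard error 0.21). The member that fell, HIST2H2BE, has a polyadenylated form and was well expressed, at 52.7, 56.4 and 60.2 against 33.8, 37.5 and 33.0 (-0.70, standard error 0.08). The counts were 16 higher and 2 lower without shCXCR7 replicate 3.

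Targets of p53 fell more often than they rose. Of 36 tested, 17 fell and 6 rose, and the median log2 change was -0.22. Beside TP53INP1, the secreted stress factor GDF15 stood at 488, 520 and 357 rescaled RPKM in LKO and at 115, 115 and 91.8 in shCXCR7 libraries (-2.07, standard error 0.16). The stress sensor SESN1 went from 50.0, 53.4 and 52.2 to 18.9, 17.5 and 13.96 (-1.63, standard error 0.11), and the cell cycle inhibitor CDKN1A from 295, 318 and 242 to 136, 155 and 114 (-1.07, standard error 0.14). GDF15 and CDKN1A were lowest in LKO replicate 3 among the controls. Their groups did not overlap, which held for 52.1% of all genes tested. MDM2, the classical feedback target of p53, did not pass, with 21.9 ± 1.21 in LKO against 23.7 ± 2.79 in shCXCR7 libraries (SD, n = 3 each; adjusted p = 0.423 from limma). The 6 members that rose were KITLG, PMAIP1, PERP, FAS, BTG2 and POLH, of which 3, 2 and 2 passed without LKO replicate 2, LKO replicate 3 and shCXCR7 replicate 2. KITLG passed the filter through the shCXCR7 libraries alone, so it could only differ upward.

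In the BCL2 family, 18 of 24 genes were tested, 5 rose and 5 fell, and the median log2 change was 0.05. The shares that rose and fell were 27.8% each, against 19.2% and 21.2% of all genes tested. The pore-forming BAX went from 34.6, 34.8 and 34.0 rescaled RPKM to 13.7, 15.7 and 13.5 (-1.26, standard error 0.08), and BCL2L13 from 8.77 to 3.91 on average (-1.12). The BH3-only genes PMAIP1 (0.90) and BMF (0.84) rose. Members that promote death thus stood in both directions, and the median was 0.15 without shCXCR7 replicate 3.

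**Figure D3:**
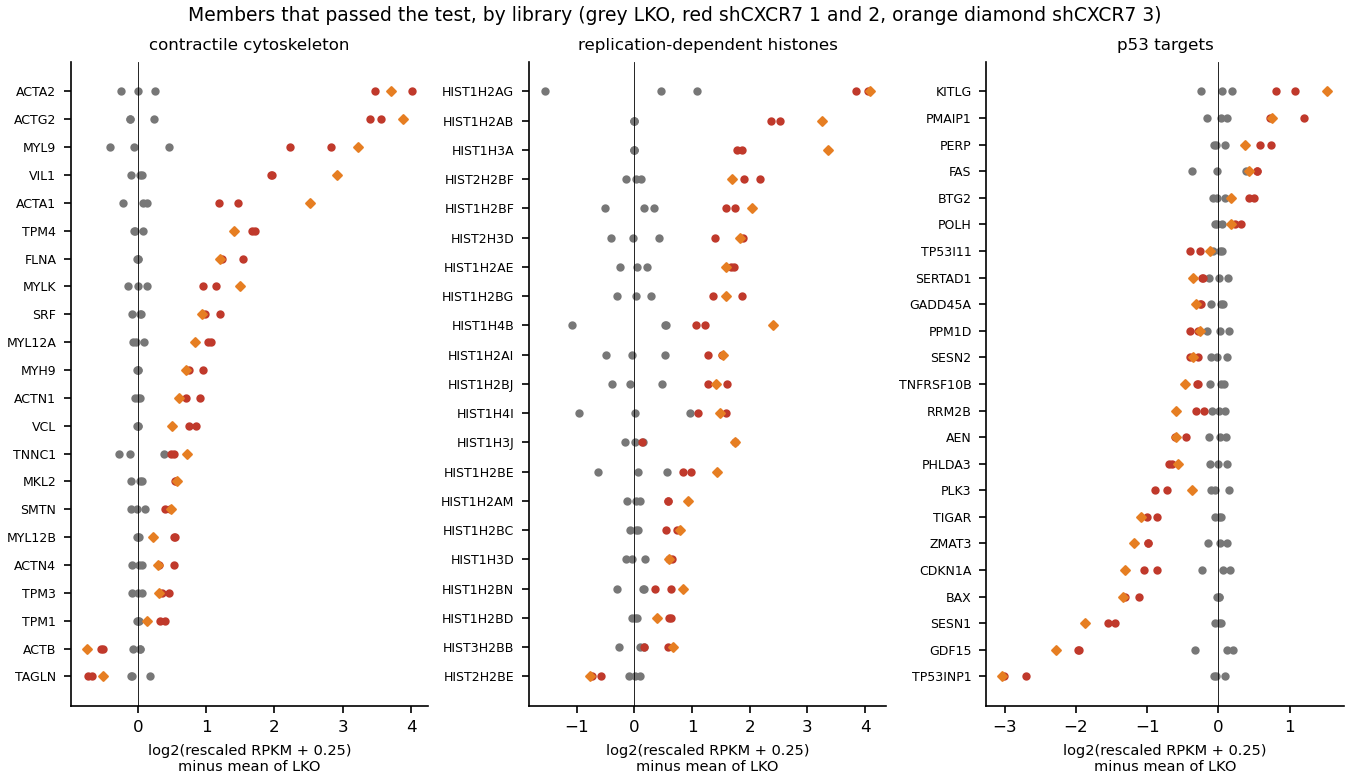
Each row is a member that passed the test at an adjusted p under 0.05 in 1 of 3 lists, and each point a library as log2(rescaled RPKM + 0.25) minus the mean of the 3 LKO libraries, grey for LKO, red for shCXCR7 replicates 1 and 2 and orange for shCXCR7 replicate 3. Of the contractile members drawn, 20 lie to the right of 0 and 2 to the left, of the histone genes 20 and 1, and of the p53 targets 6 and 17.

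Androgen receptor targets were lower after knockdown, in cells whose receptor was already under enzalutamide. Of 34 listed, 27 were tested, 15 fell and 1 rose, and the median log2 change was -0.39. The kallikrein protease KLK4, on chromosome 19 from 50906351 to 50911395, stood at 31.0, 38.7 and 36.0 rescaled RPKM in LKO and at 4.54, 4.85 and 5.48 in shCXCR7 libraries (-2.77, standard error 0.10). KLK3, which encodes PSA, went from 24.0, 25.3 and 27.0 to 6.56, 6.598 and 8.50 (-1.79, standard error 0.10), and KLK2 from 7.10, 6.92 and 7.12 to 1.22, 0.855 and 2.59 (-2.13, standard error 0.27). KLK2 and KLK3 are close copies, and KLK2 was -2.54 without shCXCR7 replicate 3, whose value of 2.59 was the highest of its group.

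The fall was not shared by all targets. The serine protease TMPRSS2 fell from 28.1, 30.3 and 30.6 to 14.3, 13.7 and 12.9 (-1.11), the lipid phosphatase PPAP2A, now PLPP1, from 105, 97.1 and 99.6 to 30.9, 31.6 and 29.5 (-1.70), and the transporter ABCC4 from 10.9 to 3.52 on average (-1.56). FKBP5, an often used reporter of androgen and glucocorticoid action, was at 2.69 ± 0.176 in LKO and 2.86 ± 0.029 in shCXCR7 libraries (SD, n = 3 each) and did not pass. The condensin subunit NCAPD3 was the 1 target that rose (0.58). Between 13 and 16 targets fell and 1 rose when any 1 library was left out.

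The upstream region of KLK3 is shown because it holds the half-site through which the androgen receptor is known to bind this promoter. The letters AGAACA, searched on both strands in the 250 bases before each start, were found in 3 of 46 promoters of the list, which are those of KLK3, PMEPA1 and TRPM8, and in 12.4% of all promoters. In the stretch, read 5′ to 3′ from RefSeq (GRCh38.p14), capitals mark the half-site.
KLK3, chr19:50854733-50854762, + strand: tctagtaattgcAGAACAgcaagtgctagc
The share in this list was not above that of all promoters, and PMEPA1, which holds the letters, did not pass (0.24).

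Among the androgen receptor and luminal transcription factors, 12 of 20 were tested, 6 fell and 2 rose, and the median log2 change was -0.17. The pioneer factor GATA2 went from 125, 137 and 138 to 70.3, 75.2 and 62.6 (-0.94, standard error 0.09), FOXA1 from 138.8 to 112.0 on average (-0.31) and the epithelial factor EHF from 55.9 to 32.7 (-0.78). In each of these the groups did not overlap, which held for 52.1% of all genes tested. The mineralocorticoid receptor NR3C2 rose from 2.06 to 2.96 (0.48), and so did the nuclear receptor HNF4G (1.16), which was under 0.5 RPKM in every LKO library and passed the filter through the shCXCR7 libraries alone. Only 1 member rose without any 1 of LKO replicate 2 and the 3 shCXCR7 libraries.

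Of 36 steroid metabolism enzymes, 19 were tested, 4 rose and 4 fell, and the median log2 change was -0.01, and 2 fell without any 1 of LKO replicate 1, LKO replicate 2 and shCXCR7 replicate 2. The shares that rose and fell with all 6 libraries, 21.1% each, were near the 19.2% and 21.2% of all genes tested. CYP7A1, the rate-limiting enzyme of bile acid synthesis, had 2 reads over the 3 control libraries and 407 reads over the 3 shCXCR7 libraries, a ratio of 166 per library size with an exact 95% interval from 45.6 to 1370 that covers counting error only. CYP7A1 passed the filter through the shCXCR7 libraries alone, so it could only differ upward. AKR1C3, which makes testosterone from a weaker precursor, is described above, and HSD17B10, a mitochondrial dehydrogenase, stood at 27.1, 26.6 and 23.2 rescaled RPKM in LKO and at 72.8, 78.2 and 68.8 in shCXCR7 libraries (1.51, standard error 0.09). The androgen glucuronosyltransferases UGT2B15 and UGT2B17 are near copies. They were at 37.1 and 53.4 in LKO and at 36.9 and 45.8 in shCXCR7 libraries and did not pass.

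Cell cycle genes fell more often than they rose. Of 54 G2/M phase genes, all 54 tested, 17 fell and 3 rose, and the median log2 change was -0.18 and none at 2-fold. Among the 28 tested of 31 G1 cyclins, CDKs and CDK inhibitors, 9 fell and 2 rose (median -0.18), and 10 of 42 tested S phase genes fell while 2 rose (median -0.08). The share of S phase genes that fell, 23.8%, was near the 21.2% of all genes tested, and 4.76% rose against 19.2%. Without shCXCR7 replicate 2, 11 G2/M and 5 S phase genes fell. Without shCXCR7 replicate 3, 5 G2/M, 5 S phase and 4 G1 genes rose, and 1 S phase gene rose without any 1 of the others except LKO replicate 1. Besides CCND1, the S phase cyclin CCNE2 went from 4.58, 4.83 and 5.34 rescaled RPKM to 2.08, 1.65 and 1.96 (-1.27, standard error 0.12), CCNE1 from 7.80 to 3.60 (-1.06) and their kinase CDK2 from 9.14 to 4.54 (-0.97). CDK4, the partner of CCND1, rose from 41.6 to 54.0 (0.37).

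The mitotic genes that the study follows showed small falls. AURKA, the Aurora A kinase, stood at 3.71, 4.44 and 3.90 rescaled RPKM in LKO and at 2.87, 2.71 and 2.88 in shCXCR7 libraries (-0.47, standard error 0.10, adjusted p = 0.00429 from limma). Its activator TPX2 went from 10.5, 10.0 and 9.20 to 7.62, 6.65 and 7.47 (-0.44), the mitotic kinase CDK1 from 18.8, 19.3 and 20.7 to 16.0, 12.9 and 12.3 (-0.51) and survivin (BIRC5) from 9.39, 8.13 and 8.29 to 5.34, 5.23 and 5.66 (-0.64). In these 4 genes each knockdown library was below each control library, and groups did not overlap for 52.1% of all genes tested. E2F1 did not pass, with 5.85, 6.62 and 6.03 in LKO against 4.18, 5.16 and 5.92 in shCXCR7 libraries (adjusted p = 0.0909 from limma), and it passed without shCXCR7 replicate 3 (-0.39, adjusted p = 0.0222 from limma). Of 36 Aurora A partners, 34 were tested, 11 fell and 4 rose (median -0.08), with the scaffold NEDD9, which binds and activates Aurora A, higher at 2.80, 2.81 and 3.11 against 0.802, 0.834 and 0.845 (1.55, standard error 0.15). In homologous recombination, 34 of 37 genes were tested, 7 fell and 3 rose (median 0.01), and the list had 10 falls and 5 rises (median -0.09) without shCXCR7 replicate 3 but 2 to 4 falls and 1 rise without any 1 of the other 5 libraries. Its share of falls with all 6 libraries, 20.6%, was near the 21.2% of all genes tested, and 8.82% rose against 19.2%.

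Antioxidant genes under NRF2 control rose on balance. Of 30 listed, 24 were tested, 10 rose and 1 fell, and the median log2 change was 0.26, which is -0.08 on the deposited values. Heme oxygenase HMOX1 stood at 2.44, 2.96 and 2.66 rescaled RPKM in LKO and at 7.05, 7.09 and 6.90 in shCXCR7 libraries (1.31, standard error 0.09). UGDH, which makes UDP-glucuronate, went from 7.78, 5.65 and 5.83 to 19.7, 19.0 and 16.8 (1.501, standard error 0.12), NQO1 from 22.9 to 30.2 (0.39) and GCLM, a subunit of the enzyme that starts glutathione synthesis, from 4.95 to 7.59 (0.59). TXNRD1, a thioredoxin reductase, fell (-0.49), and the transcript of NRF2 itself, NFE2L2, was at 11.3 and 11.4 and did not pass. A second member fell without shCXCR7 replicate 1 or 3.

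Interferon-stimulated genes moved in both directions. Of 46 listed, 34 were tested, 14 rose and 5 fell, and the median log2 change was 0.33, and 5 of the 34 passed the filter through the shCXCR7 libraries alone. The guanylate-binding protein GBP2 stood at 0.114, 0.1197 and 0.236 rescaled RPKM in LKO and at 3.13, 3.25 and 3.26 in shCXCR7 libraries (3.10, standard error 0.24), and the RNA sensor IFIH1 at 1.26, 0.807 and 1.11 against 3.63, 3.58 and 4.00 (1.62, standard error 0.16). The signal transducer STAT2 (-0.53), IFITM2 (-1.71), IFITM3 (-0.84) and IFI6 (-0.51) fell. Without shCXCR7 replicate 3 the median of this list was 0.05, with 10 rises and 6 falls among the 29 genes still tested. Rises numbered 9, 9 and 7 without LKO replicate 3, shCXCR7 replicate 1 and shCXCR7 replicate 2. In MHC class I and antigen processing, 19 of 25 were tested, 4 rose and 3 fell (median -0.14), with NLRC5, which drives these genes, higher (2.07) and PSMB10, a subunit of the immunoproteasome, lower (-0.55). NLRC5 passed the filter through the shCXCR7 libraries alone, so it could only differ upward. The shares of this list that rose and fell were 21.1% and 15.8%, against 19.2% and 21.2% of all genes tested.

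Stress and metabolic lists had members in both directions, as did all genes tested, of which 19.2% rose and 21.2% fell. Of 40 amino acid and ER stress genes, 38 were tested, 10 rose and 10 fell (median 0.06), with DDIT4, an inhibitor of mTOR, at 73.0, 76.7 and 75.2 rescaled RPKM in LKO and 29.0, 31.7 and 27.6 in shCXCR7 libraries (-1.34, standard error 0.08) and ATF3 higher (0.96). Of 29 small heat shock proteins and chaperones, 22 were tested, 6 rose and 4 fell (median 0.05). The chaperone HSP90AA1 stood at 382, 386 and 401 in LKO and at 124, 112 and 87.0 in shCXCR7 libraries (-1.87, standard error 0.13), and the small heat shock protein CRYAB at 0.961, 0.971 and 0.901 against 5.38, 6.43 and 4.99 (2.29, standard error 0.13). HSPB1, which is abundant, rose from 172, 186 and 184 to 333, 401 and 285 (0.90, standard error 0.13).

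In glycolysis and the hypoxia response, 34 of 39 genes were tested, 7 rose and 10 fell (median -0.10). Phosphoglycerate kinase PGK1 stood at 181, 206 and 172 rescaled RPKM in LKO and at 437, 495 and 351 in shCXCR7 libraries (1.19, standard error 0.14), while the mitophagy receptor BNIP3L went from 60.5, 63.2 and 64.0 to 21.7, 18.8 and 16.9 (-1.70, standard error 0.09) and the enolase ENO2 from 11.55, 11.69 and 14 to 5.10, 6.005 and 6.08 (-1.08, standard error 0.10). Only 4 members rose without LKO replicate 1 or without shCXCR7 replicate 2. Of 34 genes of cholesterol and fatty acid synthesis, 33 were tested, 13 fell and 7 rose (median 0.01). The sterol regulator SREBF2 went from 21.9, 20.4 and 20.2 to 9.63, 9.82 and 9.06 (-1.11, standard error 0.07). Of 30 polyamine and urea-cycle genes, 25 were tested, 7 fell and 5 rose (median -0.10), with ARG2 first among the falls and SAT1, which acetylates polyamines, lower as well (-0.65).

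Pathways of cell shape and growth control were tested in 4 lists. In the TGF-beta and BMP pathway 32 of 48 genes were tested, 11 rose and 3 fell (median 0.16, and -0.14 on the deposited values). ID3, a target of BMP signals, stood at 16.9, 17.2 and 16.9 rescaled RPKM in LKO and at 41.7, 51.0 and 39.6 in shCXCR7 libraries (1.36, standard error 0.10), ID1 and ID2 rose (0.40 and 0.81), and the decoy receptor BAMBI fell from 66.0, 67.1 and 64.7 to 30.4, 28.2 and 23.1 (-1.28, standard error 0.10). In the Hippo pathway and its YAP targets 23 of 31 were tested, 7 rose and 4 fell (median 0.16, and -0.11 on the deposited values). The coactivator YAP1 fell (9.88, 9.91 and 9.31 against 5.70, 4.82 and 4.25, or -0.95), while the matrix protein CYR61, now CCN1, a YAP target, rose (1.01), as did AMOTL2 (1.70) and NF2 (1.09), which restrain YAP. Of the 23 Hippo genes, 2 passed the filter through the shCXCR7 libraries alone, AMOTL2 among them, and could only differ upward. Hippo falls numbered 2 without LKO replicate 3 or shCXCR7 replicate 2, and the median was 0.06 without shCXCR7 replicate 3.

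Of 52 genes listed for epithelial-to-mesenchymal transition (EMT), 20 were tested, 8 rose and 3 fell (median 0.27, and -0.05 on the deposited values). Among the 20, 1 passed the filter through the shCXCR7 libraries alone. The intermediate filament VIM stood at 6.51, 5.21 and 5.64 rescaled RPKM in LKO and at 16.8, 18.0 and 15.8 in shCXCR7 libraries (1.51, standard error 0.09), and the collagen COL5A1 at 0.567, 0.603 and 0.660 against 2.40, 2.60 and 3.51 (1.83, standard error 0.19). CDH1, the epithelial cadherin, which is lost in EMT, rose from 67.2, 60.8 and 60.0 to 101, 102 and 82.2 (0.59, standard error 0.10), and fibronectin (FN1) fell (-0.37). Keratins and junction genes numbered 19 tested of 36, 6 higher and 2 lower (median 0.08), and 7 rose without shCXCR7 replicate 3 but 2 or 3 without any 1 of the other 5 libraries. Among them the claudin CLDN7 fell (-0.67). Of 38 neuroendocrine genes 8 were tested, 3 fell and 1 rose (median -0.05). The falls were ENO2, the prohormone convertase inhibitor PCSK1N (-0.85) and the Notch ligand DLL3 (-0.59), and the rise was the synaptic vesicle protein SYP, at 0.544, 0.686 and 0.334 against 1.46, 1.24 and 1.80 (1.196, standard error 0.28). A second member rose without shCXCR7 replicate 1, and the median was -0.40 without shCXCR7 replicate 3.

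Most subunits of the respiratory chain and the ribosome did not pass. All 76 respiratory chain genes were tested, 4 rose and 12 fell (median -0.04), and apart from ATP5MJ (C14orf2) the largest fall was that of ATP5G1, at 86.7, 91.8 and 90.2 rescaled RPKM in LKO and 58.0, 56.4 and 56.7 in shCXCR7 libraries (-0.65, standard error 0.07). Of 79 ribosomal protein genes, all tested, 1 rose and 8 fell (median -0.17), with RPS23 lower (-0.67). These counts turned on 1 library, since without shCXCR7 replicate 3 the respiratory chain had 19 rises and 12 falls (median 0.05) and the ribosome 9 rises and 16 falls (median -0.06). Without any 1 of the other 5 libraries the respiratory chain had at most 2 rises and the ribosome at most 1. The falls of the respiratory chain numbered 6 without LKO replicate 2, and those of the ribosome 5 without LKO replicate 3.

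**Figure D4:**
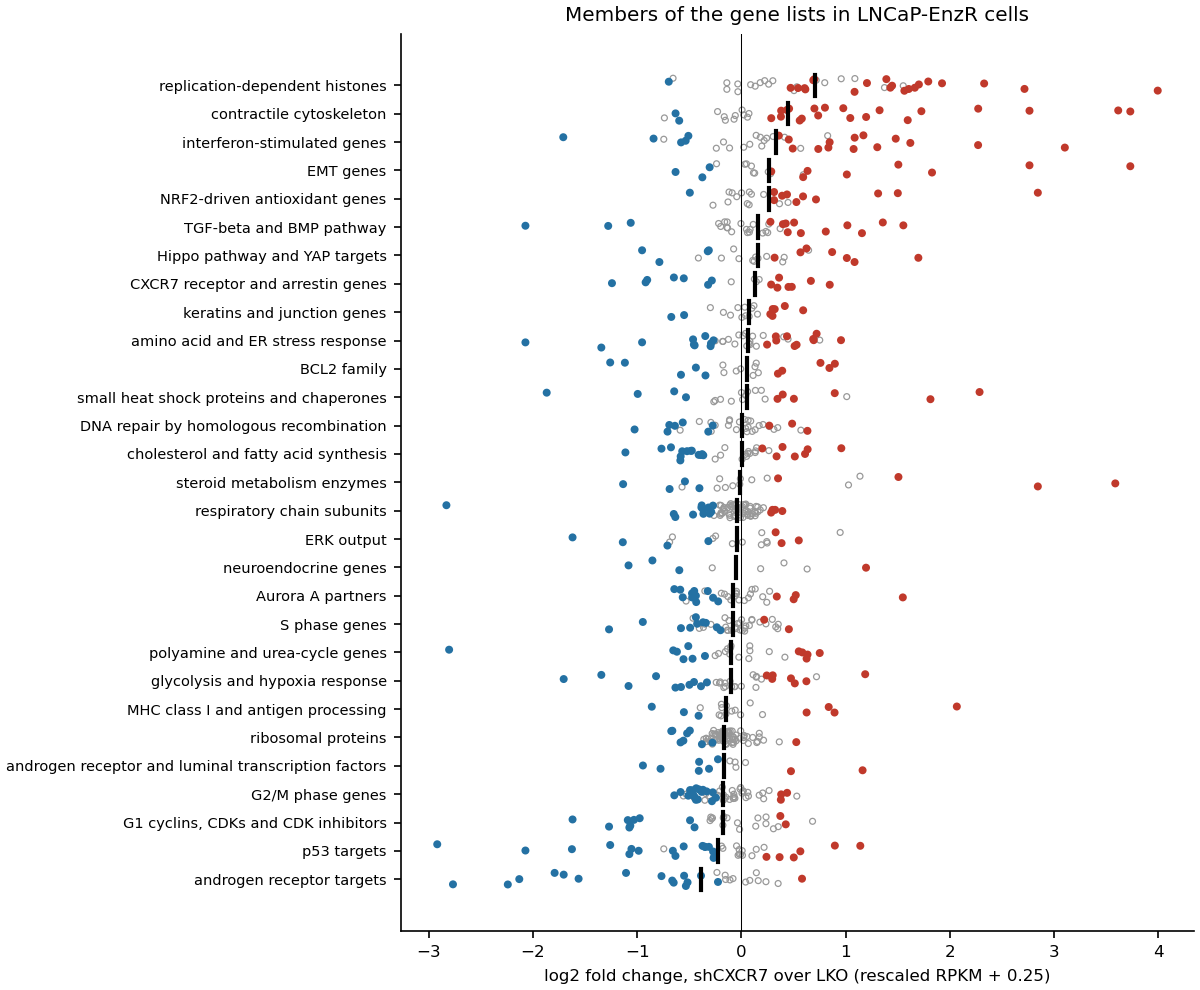
Each point is a gene tested in LNCaP-EnzR cells at its log2 fold change (shCXCR7 over LKO), red where it rose and blue where it fell at an adjusted p under 0.05 and open where it did not pass, with a black bar at the median of each list. Medians run from -0.39 for androgen receptor targets to 0.71 for replication-dependent histones.

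Markers of cell types were summed in each library to check the label. The 15 luminal prostate markers summed to between 868 and 877 rescaled RPKM in LKO and between 719 and 849 in shCXCR7 libraries, and the 11 basal markers to at most 8.74 and 19.5, with KRT15 and CAV1 at 0 in the 5 libraries other than shCXCR7 replicate 3. The 15 smooth muscle markers, which moved with the contractile genes, summed to between 20.7 and 21.8 in LKO and between 34.2 and 47.5 in shCXCR7 libraries. Of the 15, DES, CNN1, MYOCD, CASQ2 and KCNMB1 were at 0 in those 5 libraries, and the other markers were not. Their part in the rise of contractile genes was not tested. Of the tested markers, 3 of 13 luminal ones rose and 7 fell, 1 of 4 basal ones rose, and 4 of 6 smooth muscle ones rose and 1 fell, while 1 of 3 blood markers fell and neither the 2 fibroblast nor the 1 endothelial marker passed. Of the 6 smooth muscle ones, ACTG2 passed the filter through the shCXCR7 libraries alone. Luminal rises numbered 1 without LKO replicate 1 or shCXCR7 replicate 1, luminal falls numbered 4 without LKO replicate 2 or 3, and no basal marker rose without LKO replicate 2. Fibroblast, blood and endothelial markers summed to at most 3.91, 6.51 and 1.07 in LKO, at most 4.14, 5.06 and 0.641 in shCXCR7 replicates 1 and 2, and 11.6, 17.2 and 7.95 in shCXCR7 replicate 3. COL1A2, DCN, PDGFRA and POSTN of fibroblasts, CD3E, CD3D and HBA2 of blood and PECAM1, CDH5 and KDR of endothelium were at 0 in the 5 other libraries. Markers of embryonic kidney cells, the usual source of lentivirus, summed to between 26.4 and 32.3 in LKO and between 15.4 and 20.1 in shCXCR7 libraries, and 1 of the 2 tested, GAL, fell (-0.91). Of these 10 markers, LHX1, WT1, LIN28B and DPPA4 were at 0 in the 5 libraries other than shCXCR7 replicate 3.

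The same genes were read in C4-2B-EnzR cells, which have their own control libraries. Of the 513 genes past 2-fold and 0.001 in LNCaP-EnzR cells, 493 were tested there, and 461 of them passed there in the same direction, where 21.2% of all genes tested in C4-2B-EnzR were higher and 21.3% lower at that limit. A hairpin of the same name was used in both lines, so effects of losing CXCR7 and other effects of the hairpin cannot be told apart. The difference of the knockdown effect between the lines, tested as an interaction over the 12 libraries, passed an adjusted p under 0.05 for 14.4% of 12537 genes. Cell line, enzalutamide dose (2 and 10 µM) and depth of the ACKR3 fall go together here, so their parts in such differences cannot be told apart. The effect differed for 41 of 54 G2/M phase genes, 24 of 42 S phase genes and 15 of 33 Aurora A partners, in each of them with a less negative or more positive value in LNCaP-EnzR cells. G2/M phase genes had a median of -0.18 in LNCaP-EnzR cells against -1.19 in the other line, where 49 of 54 fell.

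Other lists were compared in the same way. Androgen receptor targets had medians of -0.39 and -0.47, in the order LNCaP-EnzR and C4-2B-EnzR, with 10 of 26 members differing, 5 in each direction. NRF2 genes had medians of 0.26 and 0.28, with 1 of 23 differing, and interferon-stimulated genes 0.33 and 0.29, with 1 of 27 differing. Without shCXCR7 replicate 3 the interferon median in LNCaP-EnzR cells was 0.05. Of 31 contractile genes 12 differed, 9 of them with a smaller or more negative value in LNCaP-EnzR cells, and the list's median was 0.45 against 0.71. Respiratory chain genes differed for 18 of 76, all with the lower value in LNCaP-EnzR cells, where 4 rose against 42 in C4-2B-EnzR cells. In LNCaP-EnzR cells 19 of them rose without shCXCR7 replicate 3, and the 18 differences were not counted again without it. ACKR3 itself fell further in C4-2B-EnzR cells, at -1.97 against -1.24 (adjusted p of the difference = 0.00608 from limma).

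**Figure D5:**
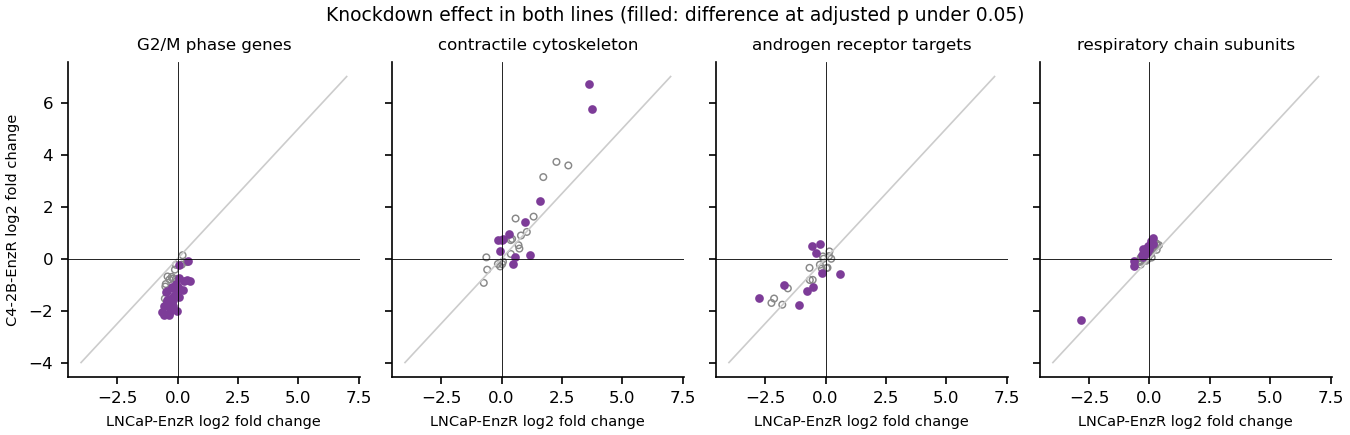
Genes tested in both lines are drawn as points, at the log2 fold change of LNCaP-EnzR cells (x axis) and of the C4-2B-EnzR line (y axis), filled where the difference between the lines passed an adjusted p under 0.05, and the grey line marks equal effects. G2/M phase genes lie below the grey line, 41 of 54 of them filled, and androgen receptor targets lie on both sides of it.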

How the data were processed

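RNA-Seq libraries were made with a NEBNext Ultra kit, aligned and counted by the authors with STAR on GRCh38, and deposited as RPKM per gene. The submitters' notes call the build hg38. Neither annotation nor strand setting is given in the sources used here, so overlapping and antisense genes cannot be told apart. Since RPKM divides by all reads, many reads outside genes lower every value. Of 26475 lines, 32 empty and 4 repeated lines were dropped. Whole reads were recovered from the steps of RPKM for 25027 of 25028 genes, within 0.02 reads.

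The 6 columns were rescaled by median-of-ratios factors over genes with at least 0.5 deposited RPKM in 3 of 6 libraries. Limma 3.58.1 in R 4.3.3 was fitted on log2(rescaled RPKM + 0.25) with a variance trend and Benjamini-Hochberg adjustment over 13167 genes. A fold change on this scale understates the change of low genes. C4-2B-EnzR libraries were fitted in the same way, and the lines were compared by an interaction term. The fit was tested on simulated data. Replicates differed by more than counting error (chi-square per degree of freedom between 1.8 and 9.64), so none was a copy. Coordinates and promoters came from RefSeq GRCh38.p14, with 12913 of 13167 symbols matched. Tables were handled in Python 3.11.15 with pandas 2.3.3, and drawn with matplotlib 3.10.9. Exact tests used scipy 1.17.1.

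Members, gene lists and tests were chosen with earlier results of these data known. Named genes were the 12 largest rises and falls among genes at an adjusted p under 0.05, 2-fold, a mean of at least 2 rescaled RPKM and no overlap of groups, with the same call without shCXCR7 replicate 3, up to 4 members per list at an adjusted p under 0.05 and a mean of at least 1, and genes the study follows. Other list members were named after their values were seen. Short RNA genes were left out of the ranking, 3 higher and 17 lower ones that met the other conditions. Alternatives were other scalings, pseudocounts (0.05 and 1), filters, forms of empirical Bayes, library weights, a replicate block, subtraction of the background of shCXCR7 replicate 3, voom on whole reads and leaving out each library. Factors over all genes above 0, voom without shCXCR7 replicate 3, and the same genes without shCXCR7 replicate 3 were added after the data were seen. A few genes that met the naming rule are not reported here by name, and counts include them.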

Additional observations from a re-analysis of the deposited data

Results flagged for a closer look

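The knockdown effect of 16 genes chosen by the naming rule differed between LNCaP-EnzR and C4-2B-EnzR cells by at least 1 on the log2 scale at an adjusted p under 0.05 (interaction term over the 12 libraries, limma). Values are the effect in LNCaP-EnzR minus that in C4-2B-EnzR cells, with libraries scaled together. Line, enzalutamide dose and depth of the ACKR3 fall cannot be told apart in them. Cell cycle and repair genes had positive differences, with less of a fall in LNCaP-EnzR cells, of 1.73 for RRM2, 1.4 for BIRC5, 1.27 for BRCA1, 1.22 for NUF2, 1.16 for TPX2 and 1.12 for TYMS. The smooth muscle actins rose less in LNCaP-EnzR cells, with differences of -2.85 for ACTG2 and -1.97 for ACTA2. KLK4 and MMD fell further in LNCaP-EnzR cells, by -1.27 and -1.39. AMOTL2 (1.66), HIST2H3D (1.58), COL5A1 (1.39) and C2orf54 (1.17) were more raised in LNCaP-EnzR cells, and the first 3 did not pass in C4-2B-EnzR cells (0.07, 0.15 and 0.46). SYP rose less (-1.18), and PCSK1N fell in LNCaP-EnzR and rose in C4-2B-EnzR cells, at -0.85 and 0.53 (difference -1.39, adjusted p = 0.00238). Among genes named after their values were seen, NCAPD3 and MYLK also differed (1.16 and 1.06). BRCA1 in LNCaP-EnzR cells did not pass without any 1 of LKO replicates 1 to 3 or shCXCR7 replicates 1 and 2. Groups of 3 libraries were not searched for single outlying libraries.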

How the results depend on the processing

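On the deposited RPKM with no rescaling, 108 genes were higher and 88 lower at 2-fold and 0.001, 236 higher and 371 lower at an adjusted p under 0.05, and ACKR3 did not pass at -1.58 (adjusted p = 0.112 from limma). A pseudocount of 1 gave 162 higher genes at 2-fold. Voom on the reads of 5 libraries without shCXCR7 replicate 3, added after the data were seen, gave 445 higher and 451 lower. Leaving out 1 library gave between 165 and 232 higher and between 238 and 320 lower genes at 2-fold and 0.001, the lowest count without shCXCR7 replicate 2 (165), and between 1958 and 2888 higher and between 2244 and 3068 lower at 0.05, with ACKR3 between -1.33 and -1.13. The remaining settings kept these counts within 1.5 times, and the cause of the shifts was not tested. The same-numbered libraries did not deviate together (correlations -0.019, 0.019 and -0.077). With a replicate block the counts were 241 higher and 271 lower, ACKR3 stayed at -1.24, and 1191 genes differed between the lines in place of 1809, or 1630 without shCXCR7 replicate 3. Of 122 named genes that passed, none changed sign with a call under any setting, 69 did not pass on deposited values, and 11 did not pass under another setting, which were UGT2B28, NUF2, DSCC1, RRM2, CDKN2D, BRCA1, SMOX, CLDN4, FANCE, RMI2 and RPL7. ACTG2, CYP7A1, MYL9, GBP2, NLRC5, AMOTL2, ACTA1, KITLG and HNF4G drop below the filter without shCXCR7 replicate 3, and passed when the same genes were kept (3.65, 3.73, 2.67, 3.21, 1.88, 1.58, 1.41, 0.99 and 1.15).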
